A study of Homo sapiens with 9 samples.

Results

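The genes described here are 48 genes of DNA replication and mitosis, taken by symbol from the 11963 genes that the array could name from probe sets with a single gene symbol. All 48 had such a probe set, and where a gene had several, the brightest by its mean level stood for it. By role, 21 act in the entry to or the course of S phase (S phase members) and 27 act in G2 and mitosis (mitotic members), and both classes are reported apart. A gene was tested where its log2 value reached 4 on at least 3 of the 9 arrays, which 45 of the 48 members did (19 S phase and 26 mitotic). The other 3, CDT1, E2F1 and CENPE, lay below that level and are given by their values alone.

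The cells were HK-2, an adult human proximal tubule epithelial line made immortal with papillomavirus oncogenes, grown in DMEM-F12 with EGF, hydrocortisone, triiodothyronine and an insulin, transferrin and selenium supplement. There were 3 groups of 3 arrays: cells at 0 h, which the sample labels name untreated and the design text names vehicle, and cells at 24 h and at 48 h of TGFβ1, at a dose that the sources used here leave out. Each array held RNA pooled from triplicate plates of a single time point, and the replicate numbers 1, 2 and 3 stand for runs on separate days with consecutive passages of this single line. Untreated cells of 24 h or 48 h were not analysed here, which means that TGFβ1 and time in culture cannot be told apart.

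A cell licenses its replication origins by loading the MCM helicase in G1, fires them in S phase under cyclin E and CDK2 and then cyclin A, and enters mitosis under cyclin B and CDK1. Genes of the first step are driven largely by E2F factors bound at E2F motifs. Genes of G2 and mitosis are driven by the MuvB, B-Myb and FOXM1 machinery, which reads the cell cycle genes homology region (CHR). CCAAT boxes often lie in the same promoters. In many epithelial cells TGFβ halts the cycle in G1, and the transcripts of both classes then drop; papillomavirus E7, which HK-2 cells carry, inactivates the retinoblastoma protein on which part of that arrest rests. In bulk RNA, fewer dividing cells and less of a transcript per dividing cell cannot be told apart.

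The promoters of the classes hold these motifs to different extents. RefSeq promoters (GRCh38.p14) were found for 17 of the 21 S phase and 21 of the 27 mitotic members, and the 250 bases upstream of each start were searched on both strands. Of the CHR, only the letters TTTGAA were searched for. They were present in 10 of 21 mitotic promoters (47.6%) and 1 of 17 S phase promoters (5.88%), against 13.6% of all 27305 promoters. CCAAT was present in 18 of 21 mitotic (85.7%) and 9 of 17 S phase promoters (52.9%), against 33.0% of all. At least 1 of the E2F motifs TTTNGCGC and GGCGGGAA was present in 8 of 17 S phase promoters (47.1%) and 2 of 21 mitotic promoters (9.52%), against 4.23% of all. A match describes the letters and not a bound site.

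Of the members on which the results turn, MCM6 and PCNA have E2F motifs. NUSAP1 and BUB1 have CCAAT boxes and no TTTGAA, and KIF11 and MKI67 have both TTTGAA and CCAAT. The promoters of these 6 members are given below. Each is the 250 bases before the start, read 5′ to 3′ on the gene's strand, with every match to these motifs on either strand in capitals. They lie at chr2:135876444-135876693 on the minus strand (MCM6), chr20:5126623-5126872 minus (PCNA), chr15:41332631-41332880 plus (NUSAP1), chr2:110678064-110678313 minus (BUB1), chr10:92592880-92593129 plus (KIF11) and chr10:128126424-128126673 minus (MKI67).
MCM6: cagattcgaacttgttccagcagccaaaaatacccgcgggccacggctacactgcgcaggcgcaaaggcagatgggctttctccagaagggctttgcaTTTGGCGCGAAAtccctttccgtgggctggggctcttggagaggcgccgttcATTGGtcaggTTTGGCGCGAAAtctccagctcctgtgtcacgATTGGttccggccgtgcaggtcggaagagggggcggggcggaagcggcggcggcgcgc
PCNA: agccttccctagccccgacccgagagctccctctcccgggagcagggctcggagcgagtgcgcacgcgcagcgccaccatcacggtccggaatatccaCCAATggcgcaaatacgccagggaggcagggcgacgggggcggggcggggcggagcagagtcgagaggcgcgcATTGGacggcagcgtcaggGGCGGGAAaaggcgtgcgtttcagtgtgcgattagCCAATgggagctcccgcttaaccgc
NUSAP1: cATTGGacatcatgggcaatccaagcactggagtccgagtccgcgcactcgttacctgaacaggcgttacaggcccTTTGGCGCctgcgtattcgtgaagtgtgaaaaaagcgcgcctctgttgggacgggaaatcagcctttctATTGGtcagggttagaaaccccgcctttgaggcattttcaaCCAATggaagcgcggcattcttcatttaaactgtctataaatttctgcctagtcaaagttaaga
BUB1: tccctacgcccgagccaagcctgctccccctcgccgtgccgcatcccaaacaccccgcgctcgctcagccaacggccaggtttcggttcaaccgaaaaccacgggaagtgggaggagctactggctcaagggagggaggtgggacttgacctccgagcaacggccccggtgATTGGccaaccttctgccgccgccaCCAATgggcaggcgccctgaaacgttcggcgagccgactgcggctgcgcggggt
KIF11: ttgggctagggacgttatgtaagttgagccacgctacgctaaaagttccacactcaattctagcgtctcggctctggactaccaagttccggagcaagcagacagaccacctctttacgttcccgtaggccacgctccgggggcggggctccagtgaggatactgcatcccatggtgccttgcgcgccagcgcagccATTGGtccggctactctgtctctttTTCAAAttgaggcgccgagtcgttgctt
MKI67: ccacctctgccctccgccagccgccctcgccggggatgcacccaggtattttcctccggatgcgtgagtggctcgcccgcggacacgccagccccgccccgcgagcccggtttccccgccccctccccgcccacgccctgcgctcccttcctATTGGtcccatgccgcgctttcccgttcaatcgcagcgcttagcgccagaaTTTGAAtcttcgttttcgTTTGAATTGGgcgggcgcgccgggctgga
MCM6 carries TTTNGCGC in both orientations, overlapping, at each of 2 places, and PCNA has 1 GGCGGGAA beside 3 CCAAT boxes. In MKI67 the second CHR overlaps a CCAAT box. NUSAP1 is the single mitotic member of the 21 with TTTNGCGC.

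Many other transcripts differed between the groups. Of the 4368 genes tested with limma, 210 were called at 24 h against untreated (115 higher and 95 lower), 194 at 48 h (99 higher and 95 lower) and 0 at 48 h against 24 h (219 at an unadjusted p under 0.05). Among 9 tested genes known as TGFβ targets, 6 rose and 0 fell at each time, and with the run as a block 9 rose at 24 h and 8 at 48 h. TGFBI, a secreted matrix protein, had log2 values of 7.90 to 8.61 in untreated cells and 10.55 to 11.20 at 24 h, a rise of 2.59 ± 0.237 (SE, adjusted p = 0.000472). PMEPA1, a feedback inhibitor of SMAD signalling that is counted among the 6, lay between 2.17 and 2.58 in untreated cells. It passed the filter only through the treated arrays, where it lay between 4.87 and 5.31. SMAD7, also among the 6, gave 4.02, 4.07 and 2.67 untreated, so it too needed the treated arrays to pass. SKIL, another listed target, was below the filter, with means of 1.97 untreated, 3.13 at 24 h and 2.90 at 48 h. Of the genes listed as proximal tubule markers, 1 of 12 on the array was above the filter (PAX8, which fell at both times and is not confined to that segment). Of the distal nephron markers 1 of 5 was (SCNN1A), and of the fibroblast markers 1 of 8 (LUM). The log2 values of the 12 tubule markers, all but PAX8 below the filter, summed to 27.1 to 29.3 in untreated cells. These sums were 26.4 to 27.1 at 24 h and 26.2 to 26.4 at 48 h. Among the untested ones DPP4 gave 4.40, 2.78 and 4.34 untreated and 2.24 to 2.92 on the treated arrays. The log2 values of the distal markers summed to 11.6 to 12.4 untreated, 7.80 to 9.60 at 24 h and 8.34 to 9.23 at 48 h. SCNN1A passed the filter only through the untreated arrays, at 6.11 to 6.89, and lay between 2.75 and 3.99 on the treated ones. None of 6 endothelial or 5 leukocyte markers was above it, and their summed log2 values were 9.92 to 11.0 and 6.09 to 7.03 on all 9 arrays. Of 8 genes listed as general epithelial markers 6 were tested, and at each time 2 fell (EPCAM and CLDN1). At each time 1 rose, CDH2 (N-cadherin), which is not confined to epithelia. The log2 differences at 24 h were 1.41 for CDH2, −1.27 for EPCAM and −1.70 for CLDN1. With the block KRT8 was a second rise at 24 h (adjusted p = 0.0123), and CDH1 was below the filter. The log2 values of the fibroblast markers summed to 19.1 to 21.0 in untreated cells, 19.5 to 22.6 at 24 h and 20.5 to 21.5 at 48 h. The part of other cell types in the results below was not tested.

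Against that response, no member passed the test. At 24 h, 0 of 45 members were called in limma, where 4.81% of all tested genes were; 3 of the 45 had an unadjusted p under 0.05 (MCM6, NUSAP1 and FOXM1), as did 16.0% of all genes. At 48 h against untreated, 0 of 45 were called beside 4.44% of all genes, and 3 had an unadjusted p under 0.05 (CCNA2, BUB1 and KIF11), as did 13.9% of all genes. Between 24 h and 48 h, 0 of 45 were called beside 0.0% of all genes, with 2 at an unadjusted p under 0.05 (MCM6 and KIF11) beside 5.01% of all genes. The first and second of these comparisons share the untreated arrays. The third shares the 24 h arrays with the first and the 48 h arrays with the second. A low 24 h value therefore enters both the first and the third.

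With the run entered as a block, so that each treated array is set against the untreated array of its own day, 1 member passed at each time. NUSAP1 passed at 24 h, where 11.5% of all genes were called with the block, and BUB1 passed at 48 h, where 10.0% were. For 48 h against 24 h the block gave 0 members and 0.0% of all genes, with 8 members and 709 genes at an unadjusted p under 0.05.

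The intervals of the fit without the block show what size of change that fit leaves possible. At 24 h the 95% interval of the log2 difference lay within a 2-fold change in either direction for 43 of 45 members, including all 19 S phase members tested, where 80.5% of all genes had such an interval. The exceptions were BUB1 and CENPF, whose intervals with the block were −0.21 to 0.77 and −0.73 to 0.28. At 48 h against untreated the interval without the block lay within a 2-fold change for 39 of 45 members and 83.1% of all genes. CCNE2, BUB1, KIF11, KIF23, CENPF and MKI67 were outside. With the block CENPF (−0.04 to 0.97) and MKI67 (−0.29 to 0.82) were within it, and CCNE2, BUB1, KIF11 and KIF23 stayed outside. For 48 h against 24 h the count was 38 of 45, beside 87.0% of all genes. These intervals are not adjusted for the number of genes.

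**Figure D1:**
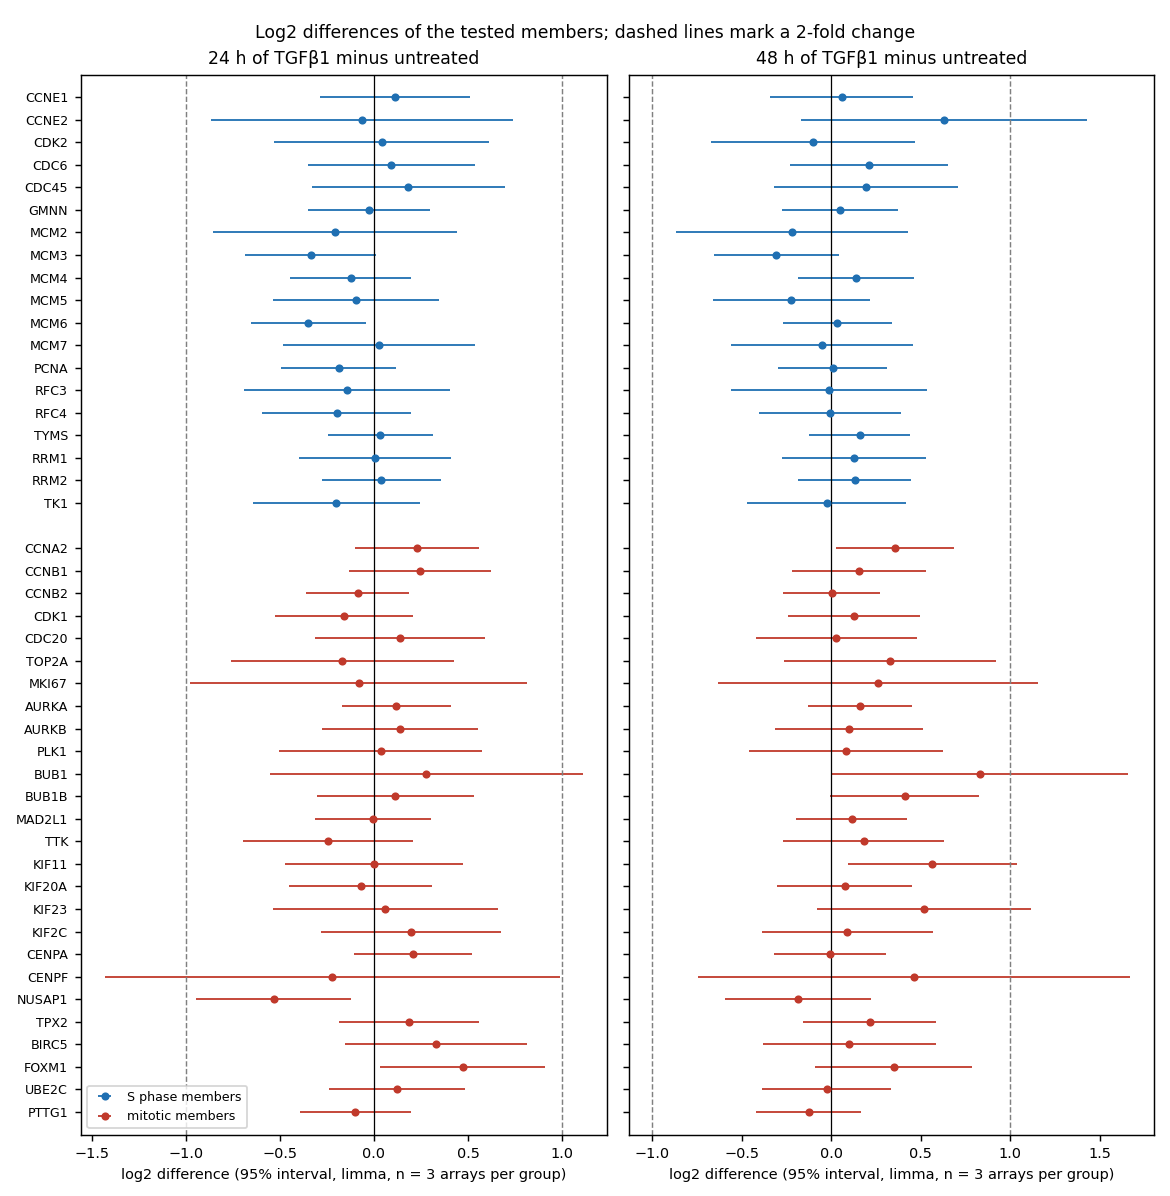
Log2 difference of each of the 45 tested members at 24 h (left) and 48 h (right) of TGFβ1 against untreated. Bars are 95% intervals from limma without the block, over 3 arrays per group. Blue points are S phase members, red points mitotic members, and dashed lines mark a 2-fold change. Of the 45 intervals, 43 at 24 h and 39 at 48 h lie between the dashed lines.

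The differences themselves were small. No member had a log2 difference of 1 or more in any comparison, where 191 of the 4368 genes did at 24 h and 164 at 48 h. S phase members at 24 h had a median difference of −0.06 and a range from −0.35 (MCM6) to 0.18 (CDC45), and mitotic members a median of 0.09 and a range from −0.53 (NUSAP1) to 0.47 (FOXM1). The median of all genes was 0.02.

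At 48 h against untreated the medians were 0.03 for S phase members, 0.14 for mitotic members and 0.02 for all genes. The point estimate was above 0 for 22 of 26 mitotic members, 11 of 19 S phase members and 54.7% of all genes. Values from 24 h to 48 h lay higher by a median of 0.12 in S phase members and 0.10 in mitotic members, beside 0.00 in all genes.

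Of the 57 within-run differences of S phase members at 24 h, 41 were below 0, and of the 78 of mitotic members 33 were. Of all genes, 54.2%, 51.6% and 50.2% were higher than untreated in runs 1, 2 and 3. The members share these 3 runs, so the counted differences are not independent. S phase members were lower than the untreated array of their own run in all 3 runs in 7 of 19 cases (GMNN, MCM3, MCM5, MCM6, PCNA, RFC3 and RFC4), and 2 of 26 mitotic members were (NUSAP1 and PTTG1), where 19.8% of all genes were. No S phase member was higher in all 3 runs at 24 h. Of the mitotic members 4 of 26 were (CCNB1, KIF2C, CENPA and FOXM1), beside 24.9% of all genes.

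At 48 h against untreated, 36 of 57 within-run differences of S phase members and 56 of 78 of mitotic members were above 0. Of all genes, 52.7%, 52.2% and 51.8% were higher in runs 1, 2 and 3. In this comparison 11 of 45 members were higher in all 3 runs, near the 23.2% of all genes: 3 S phase members (CCNE2, TYMS and RRM2) and 8 mitotic members (CCNA2, CCNB1, BUB1, MAD2L1, TTK, KIF11, BIRC5 and FOXM1). Only PTTG1 of the 45 was lower in all 3, where 18.2% of all genes were. From 24 h to 48 h, 17 of 45 were higher in all 3 runs (7 S phase and 10 mitotic) beside 21.1% of all genes, and 2 of 45 were lower in all 3 (CENPA and UBE2C) beside 22.3%.

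**Figure D2:**
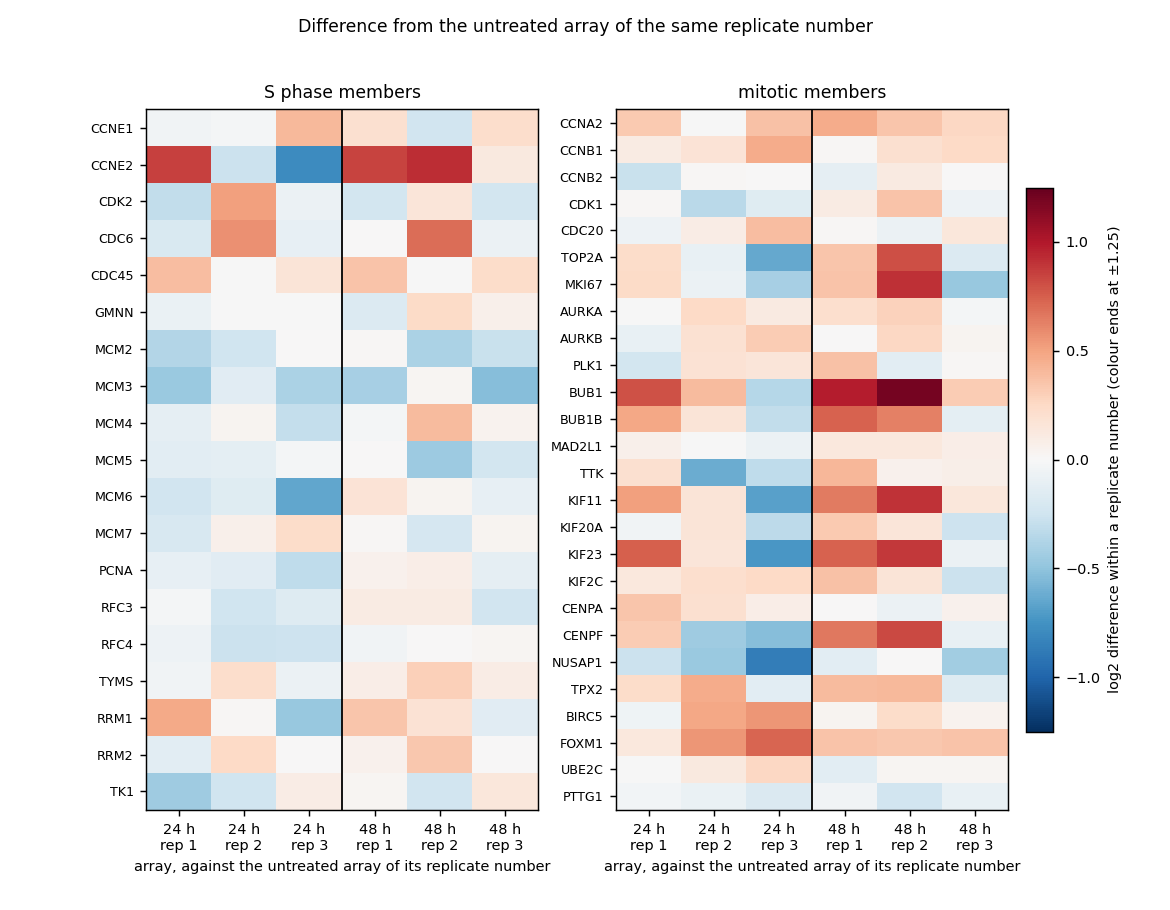
Log2 difference of each 24 h and 48 h array from the untreated array of its own run, for the 19 S phase members (left) and the 26 mitotic members (right) tested; red is higher and blue lower than untreated, and the columns are runs 1, 2 and 3 at each time. At 24 h, 41 of the 57 S phase cells of the grid are below 0, and at 48 h 56 of the 78 mitotic cells are above 0. Of all genes, 50.2% to 54.2% were higher at 24 h and 51.8% to 52.7% at 48 h, by run.

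The cyclins and cyclin-dependent kinases, which set the order of the cycle, had 7 members tested, with log2 differences from −0.16 to 0.24 at 24 h and from −0.10 to 0.63 at 48 h. CCNE1, a cyclin E that opens S phase with CDK2, gave log2 values of 3.87, 4.26 and 3.67 in untreated runs 1, 2 and 3, then 3.83, 4.23 and 4.07 at 24 h and 4.07, 4.02 and 3.89 at 48 h. Its values sat close to the filter level and the groups overlapped. For CCNE2, the second cyclin E, they were 4.72, 5.69 and 5.52 untreated, 5.58, 5.43 and 4.74 at 24 h and 5.56, 6.62 and 5.64 at 48 h. Run 1 was high and run 3 low at 24 h, all 3 runs were above their untreated array at 48 h, and the groups overlapped. The 48 h difference of CCNE2 was 0.63 ± 0.357 (SE, 95% interval −0.17 to 1.43, adjusted p = 0.529).

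CCNA2, cyclin A, which serves both S phase and mitotic entry, had log2 values of 7.04, 7.40 and 7.14 untreated, 7.36, 7.40 and 7.51 at 24 h and 7.51, 7.74 and 7.40 at 48 h. All 3 runs were higher at 48 h than untreated, and the lowest 48 h array touched the range of the untreated ones. The difference at 48 h was 0.36 ± 0.147 (95% interval 0.03 to 0.69, adjusted p = 0.303). A second CCNA2 probe set gave 0.38.

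CCNB1, cyclin B1, gave 8.75, 9.0 and 8.64 untreated, 8.85, 9.18 and 9.10 at 24 h and 8.76, 9.21 and 8.89 at 48 h on the log2 scale. Every treated array was above the untreated array of its run, and the groups overlapped because run 2 was high throughout. The differences were 0.24 at 24 h (95% interval −0.13 to 0.62) and 0.15 at 48 h (−0.22 to 0.53).

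CDK1, the kinase of mitotic entry, gave log2 values of 8.56, 8.47 and 8.78 untreated, 8.57, 8.13 and 8.63 at 24 h and 8.66, 8.82 and 8.71 at 48 h. The 3 values at 48 h were above the 3 at 24 h, and both groups overlapped with the untreated one. The CDK1 differences were −0.16 at 24 h (95% interval −0.53 to 0.21) and 0.13 at 48 h (−0.24 to 0.50), and its 3 probe sets gave −0.16 to −0.13 and 0.13 to 0.17. CDK2 and CCNB2 differed from untreated by 0.04 and −0.09 at 24 h and by −0.10 and 0.00 at 48 h.

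The MCM genes encode the 6 subunits of the replicative helicase. At 24 h, 14 of their 18 within-run differences were below 0, and at 48 h 9 of 18 were. Of all genes, 50.2% to 54.2% were higher at 24 h and 51.8% to 52.7% at 48 h, by run. MCM6 gave log2 values of 8.06, 8.18 and 8.37 untreated, 7.82, 8.02 and 7.72 at 24 h and 8.23, 8.21 and 8.27 at 48 h. Its 24 h arrays all lay below both the untreated and the 48 h arrays, with the lowest value in run 3. The difference was −0.35 ± 0.135 at 24 h against untreated (95% interval −0.65 to −0.04, adjusted p = 0.244) and 0.38 ± 0.135 from 24 h to 48 h (0.08 to 0.69, adjusted p = 0.781).

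MCM3 gave 7.21, 7.19 and 7.32 untreated, 6.74, 7.04 and 6.92 at 24 h and 6.79, 7.22 and 6.79 at 48 h on the log2 scale. At 24 h every array was below every untreated array, and at 48 h runs 1 and 3 were low while run 2 was not. The differences were −0.34 ± 0.156 at 24 h (95% interval −0.69 to 0.01, adjusted p = 0.334) and −0.31 at 48 h (−0.66 to 0.04, adjusted p = 0.454).

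For MCM2 the log2 values were 7.55, 8.40 and 8.06 untreated, 7.19, 8.14 and 8.06 at 24 h and 7.57, 8.0 and 7.78 at 48 h. Run 1 was the lowest and run 2 the highest MCM2 array at each time, and the groups overlapped. MCM4 gave 6.45, 6.46 and 6.61 untreated, 6.33, 6.49 and 6.32 at 24 h and 6.42, 6.85 and 6.65 at 48 h. The MCM4 groups overlapped, and the value was higher at 48 h than at 24 h in all 3 runs. MCM5 and MCM7 differed from untreated by −0.09 and 0.03 at 24 h and by −0.22 and −0.05 at 48 h.

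Of the other licensing and firing genes, CDC6, which loads the helicase, CDC45, which activates it, and GMNN, geminin, the inhibitor of CDT1, differed from untreated by −0.03 to 0.18 at 24 h and by 0.05 to 0.21 at 48 h. The 2 tested probe sets of CDC6 differed in sign, at 0.09 and −0.24 at 24 h and at 0.21 and −0.11 at 48 h. CDT1, which loads the helicase with CDC6, stayed between 2.47 and 3.03 on all 9 arrays, below the filter.

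PCNA, the sliding clamp of the replication fork, gave log2 values of 10.34, 10.55 and 10.50 untreated, 10.23, 10.41 and 10.19 at 24 h and 10.39, 10.64 and 10.39 at 48 h. In each run the 24 h array was the lowest of the 3 times, and the groups overlapped. The PCNA difference was −0.19 ± 0.135 at 24 h (95% interval −0.49 to 0.12, adjusted p = 0.554) and 0.01 at 48 h (−0.30 to 0.31). RFC3 and RFC4, subunits of the complex that loads the clamp, had the same direction in all 3 runs at 24 h, with differences of −0.14 and −0.20, and lay at −0.01 and −0.01 at 48 h.

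Genes of nucleotide supply differed from untreated by at most 0.20 in size. TYMS, thymidylate synthase, gave log2 values of 10.23, 10.18 and 10.22 untreated, 10.18, 10.40 and 10.15 at 24 h and 10.31, 10.48 and 10.31 at 48 h. All 3 of its 48 h arrays were above all 3 untreated arrays, by a difference of 0.16 (95% interval −0.12 to 0.44, adjusted p = 0.708). The ribonucleotide reductase subunits RRM1 and RRM2 differed by 0.00 and 0.04 at 24 h and by 0.13 and 0.13 at 48 h. TK1, thymidine kinase, differed by −0.20 at 24 h (−0.65 to 0.25) and −0.03 at 48 h.

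Among the transcription factors, E2F1, which drives S phase genes, was below the filter, with log2 values of 3.14, 3.23 and 2.77 untreated, 2.87, 3.0 and 3.08 at 24 h and 2.98, 3.09 and 2.97 at 48 h. No group stood apart. FOXM1, which drives mitotic genes, gave 4.41, 4.52 and 4.05 untreated, 4.55, 5.07 and 4.78 at 24 h and 4.77, 4.86 and 4.41 at 48 h. At 24 h every FOXM1 array was above every untreated array, and at 48 h the groups overlapped while each run was above its own untreated array. The difference at 24 h was 0.47 ± 0.195 (95% interval 0.03 to 0.91, adjusted p = 0.275), and at 48 h it was 0.35 (−0.09 to 0.79, adjusted p = 0.523).

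MKI67, the proliferation marker Ki-67, differed more between runs than between times. Its log2 values were 6.36, 5.29 and 6.29 untreated, 6.60, 5.22 and 5.87 at 24 h and 6.72, 6.20 and 5.81 at 48 h. Run 1 was above its untreated array at both times and run 3 below it at both, and the groups overlapped. The differences were −0.08 ± 0.398 at 24 h (95% interval −0.98 to 0.81) and 0.26 at 48 h (−0.63 to 1.16), and 4 MKI67 probe sets gave −0.08 to 0.26 at 24 h.

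TOP2A, the topoisomerase that untangles chromosomes, gave log2 values of 8.68, 8.10 and 8.95 untreated, 8.91, 8.01 and 8.31 at 24 h and 9.03, 8.91 and 8.78 at 48 h. Run 2 was the lowest untreated and 24 h array, and the groups overlapped. The differences were −0.17 ± 0.264 at 24 h (95% interval −0.76 to 0.43) and 0.33 at 48 h (−0.27 to 0.92).

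**Figure D3:**
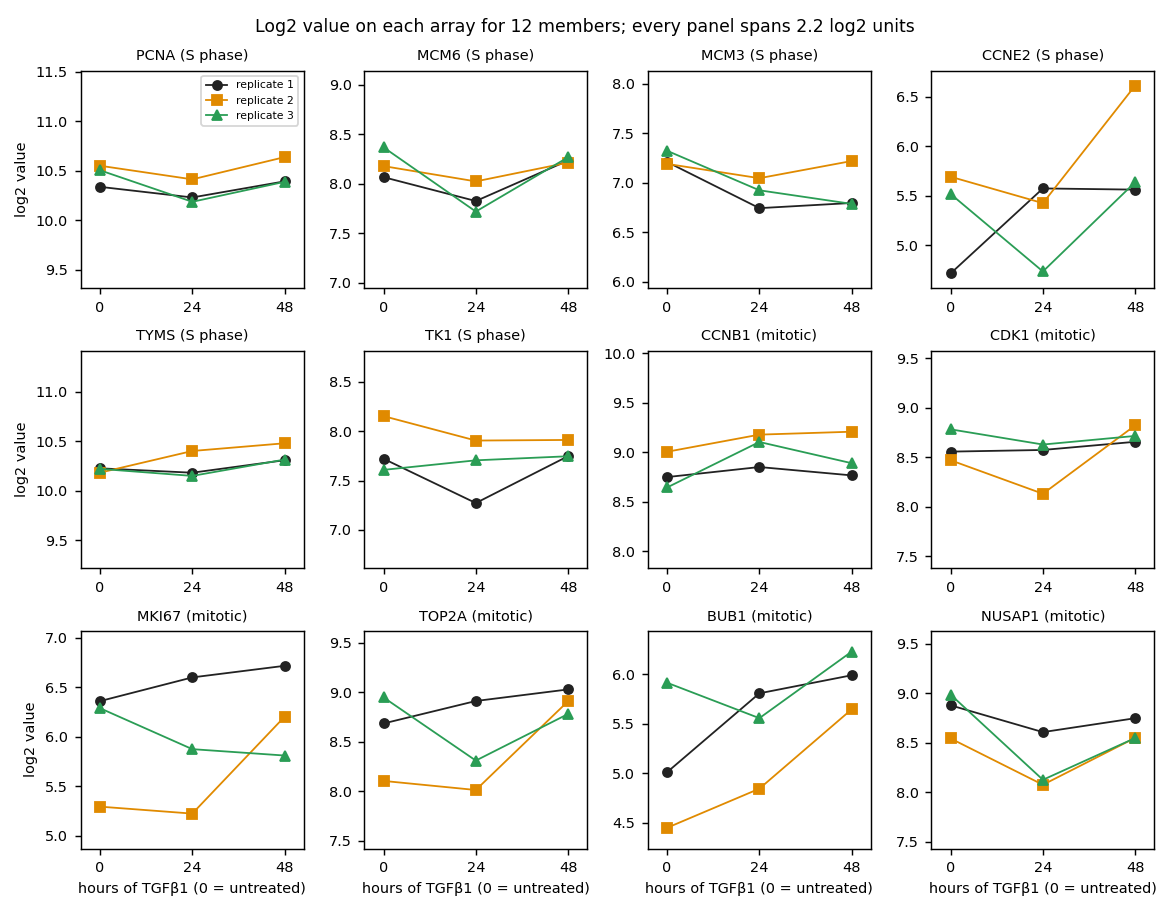
Log2 value on each of the 9 arrays for 12 members, against hours of TGFβ1 with 0 as untreated; each line joins the arrays of a single run, and all panels span the same height. PCNA and MCM6 are lower at 24 h than untreated in all 3 runs, whereas the lines of MKI67 and TOP2A cross and BUB1 at 48 h lies above its untreated array in all 3 runs.

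The kinases of mitosis AURKA, AURKB and PLK1, which build the spindle and oversee chromosome attachment, differed from untreated by 0.04 to 0.14 at 24 h and 0.08 to 0.16 at 48 h. Among the spindle checkpoint genes, which hold anaphase until all chromosomes are attached, BUB1 had the largest difference of any member. BUB1 gave log2 values of 5.01, 4.45 and 5.92 untreated, 5.81, 4.85 and 5.56 at 24 h and 5.99, 5.65 and 6.23 at 48 h. The untreated arrays spread widely, the lowest 48 h array lay below the highest untreated array, and within runs the 48 h differences were 0.98, 1.20 and 0.31.

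Without the block the BUB1 difference at 48 h was 0.83 ± 0.370 (1.78-fold, 95% interval 0.00 to 1.66, adjusted p = 0.359), and with the block BUB1 passed the test (adjusted p = 0.0458). With the block and without run 1 the adjusted p was 0.174, without run 2 it was 0.298, and without run 3 it was 0.032. The other 4 BUB1 probe sets were below the filter.

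TTK, the kinase that starts checkpoint signalling, gave log2 values of 6.40, 6.61 and 6.89 untreated, 6.61, 5.99 and 6.57 at 24 h and 6.81, 6.67 and 6.97 at 48 h. Its 48 h arrays were all above its 24 h arrays, at a difference of 0.42 ± 0.200 (95% interval −0.03 to 0.87, adjusted p = 0.781). The checkpoint genes BUB1B and MAD2L1 differed from untreated by 0.11 and −0.01 at 24 h and by 0.41 and 0.11 at 48 h.

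KIF11, the kinesin that pushes spindle poles apart, gave log2 values of 5.54, 5.61 and 6.03 untreated, 6.05, 5.78 and 5.35 at 24 h and 6.19, 6.52 and 6.17 at 48 h. All 3 of the 48 h arrays were above every array of both other groups. The 24 h interval against untreated was −0.47 to 0.47, and the difference at 48 h was 0.56 ± 0.210 (1.48-fold, 95% interval 0.09 to 1.04, adjusted p = 0.234, and 0.156 with the block). KIF20A, KIF23 and KIF2C, kinesins of cytokinesis and of chromosome attachment, differed from untreated by −0.07, 0.06 and 0.20 at 24 h and by 0.07, 0.52 and 0.09 at 48 h.

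The centromere genes were uneven. CENPA, the histone that marks the centromere, differed by 0.21 at 24 h and −0.01 at 48 h. CENPF, a kinetochore protein, ranged from 5.29 to 7.62 over the arrays with run 1 the highest at each time, and its interval at 48 h ran from −0.75 to 1.67. CENPE, a kinetochore motor, lay between 1.86 and 4.10 on the log2 scale and reached the filter level on 1 array.

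NUSAP1, which binds and bundles spindle microtubules, had the lowest difference of the members. It gave log2 values of 8.88, 8.54 and 8.99 untreated, 8.61, 8.07 and 8.12 at 24 h and 8.75, 8.55 and 8.55 at 48 h. Each 24 h array was below the untreated array of its run, by 0.27, 0.47 and 0.86, and the groups overlapped because run 1 at 24 h was above run 2 untreated. The difference at 24 h was −0.53 ± 0.182 (95% interval −0.94 to −0.12, adjusted p = 0.176), and with the block NUSAP1 passed the test (adjusted p = 0.0427).

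With the block and without run 1, 2 or 3 the adjusted p of NUSAP1 was 0.0725, 0.154 and 0.228, so the call needed all 3 runs. A second NUSAP1 probe set gave −0.78 at 24 h (adjusted p = 0.0766 with the block, over all probe sets). TPX2, which activates AURKA on the spindle, and BIRC5, survivin of the chromosomal passenger complex, differed from untreated by 0.19 and 0.33 at 24 h and by 0.22 and 0.10 at 48 h. A second tested BIRC5 probe set gave 0.53 at 24 h and 0.37 at 48 h (adjusted p = 0.333 and 0.595 in limma, over all probe sets).

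The genes of mitotic exit, which act through the anaphase-promoting complex, were near level. CDC20, its activator, gave log2 values of 8.07, 8.39 and 7.76 untreated, 8.01, 8.49 and 8.14 at 24 h and 8.08, 8.32 and 7.91 at 48 h. UBE2C, its ubiquitin-conjugating enzyme, gave 10.22, 10.12 and 9.78 untreated, 10.22, 10.24 and 10.04 at 24 h and 10.09, 10.15 and 9.81 at 48 h. In both genes the groups overlapped and the untreated array of run 3 was the lowest untreated one.

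PTTG1, securin, which the complex destroys at anaphase, gave 9.61, 9.66 and 9.49 untreated, 9.57, 9.58 and 9.31 at 24 h and 9.56, 9.42 and 9.39 at 48 h on the log2 scale. Both treated arrays of every run were below its untreated array, and the groups overlapped. The PTTG1 differences were −0.10 at 24 h (95% interval −0.39 to 0.20) and −0.13 at 48 h (−0.42 to 0.17). For CDC20 and UBE2C they were 0.14 and 0.12 at 24 h and 0.03 and −0.03 at 48 h.

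Much of the variation among the 9 arrays lay between runs. In S phase members the median share of a gene's variance was 15.3% between times and 49.8% between runs; in mitotic members it was 27.7% and 40.1%; in all tested genes it was 29.2% and 38.6%. The run share was the larger in 14 of 19 S phase members, 15 of 26 mitotic members and 57.4% of all genes. RFC3 had 85.6% and MCM7 82.6% of its variance between runs. At the other end, MCM6 had 73.7% between times and 4.24% between runs, and KIF11 had 58.2% and 1.92%.

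**Figure D4:**
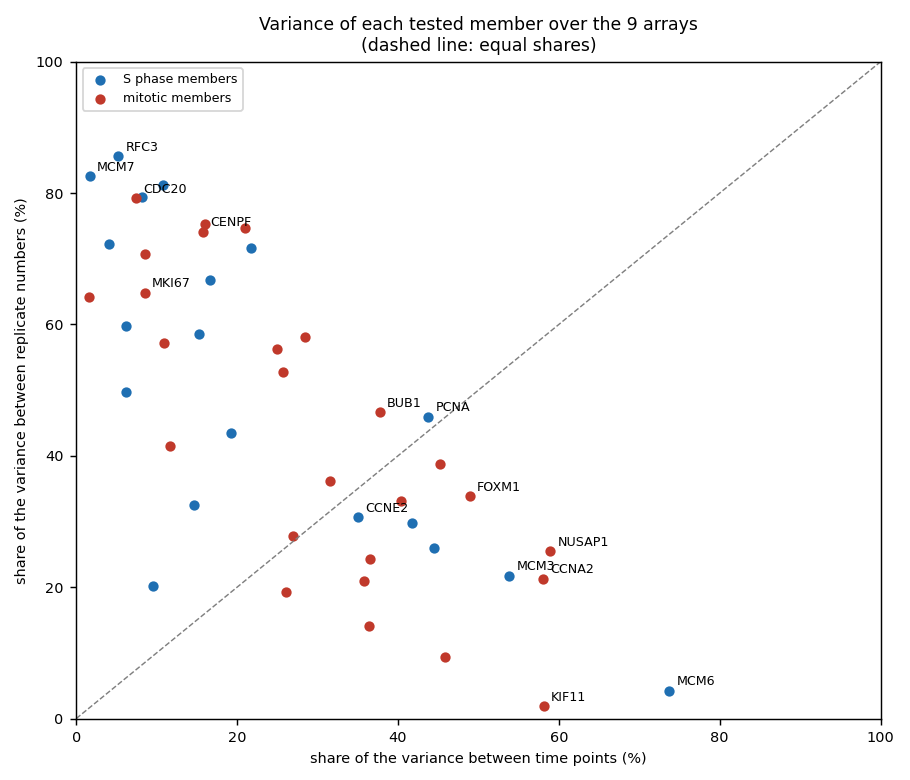
Share of each tested member's variance over the 9 arrays that lay between the 3 times (horizontal, %) and between the 3 runs (vertical, %), with S phase members in blue and mitotic members in red; points above the dashed line have the larger share between runs. Of the 45 points, 29 lie above the line, and MCM6 and KIF11 sit farthest to the lower right.

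The runs did not carry the 48 h pattern equally. In mitotic members the median within-run difference at 48 h was 0.34 in run 1, 0.24 in run 2 and 0.01 in run 3. In these runs 20, 22 and 14 of 26 members were higher, beside 52.7%, 52.2% and 51.8% of all genes. At 48 h, run 3 had the lowest array for 19 of 26 mitotic members (73.1%), where it had the lowest for 29.9% of all genes. S phase members at 24 h had medians of −0.12, −0.03 and −0.08 in runs 1, 2 and 3. Run 2 had the highest array for 9, 13 and 14 of 19 S phase members at 0, 24 and 48 h. Of all 4368 genes, it had the highest array for 1607, 1462 and 1665.

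Members of a class did not all vary together. As a description over 9 arrays that share 3 runs, the correlation of an S phase member with the mean of the others of its class ran from −0.62 (CDK2) to 0.91 (PCNA) with a median of 0.55. For mitotic members it ran from −0.30 (CDC20) to 0.91 (BUB1B), with a median of 0.28 and 8 of 26 below 0.

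Other genes of the same machinery were counted in the same fit. Of 47 other S phase genes, 33 were tested and 0 were called in any comparison without the block. At an unadjusted p under 0.05 in limma there were 3, 2 and 1 (24 h, 48 h, and 48 h against 24 h). Of all genes, 16.0%, 13.9% and 5.01% had such a p. The median differences of these S phase genes were −0.05 at 24 h and 0.04 at 48 h. With the block 3 of the 33 fell at 24 h, where 11.5% of all genes were called. They were POLA1 and PRIM1, of the polymerase alpha and primase complex, and DTL, which marks CDT1 for destruction. Their log2 differences were −0.82, −0.47 and −0.47 (adjusted p = 0.0144, 0.0246 and 0.0359 with the block and 0.127, 0.0929 and 0.0922 without it).

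Of 55 other mitotic genes, 41 were tested and 0 were called without the block in limma (3, 3 and 6 at an unadjusted p under 0.05), with medians of −0.04 at 24 h, 0.14 at 48 h and 0.22 from 24 h to 48 h. With the block NCAPH, a condensin subunit, rose at 24 h (0.60, adjusted p = 0.047). NDC80, an outer kinetochore protein, rose at 48 h (0.50, adjusted p = 0.0387), again with the block. Of all genes, 11.5% were called with the block at 24 h and 10.0% at 48 h. Of 23 G1 regulators, 12 were tested and 0 were called in limma with or without the block (1, 0 and 0 at an unadjusted p under 0.05 without it, and 4, 1 and 1 with it). CCND1, cyclin D1, differed by 0.67 ± 0.305 at 24 h (95% interval −0.02 to 1.35, adjusted p = 0.330).

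Among the CDK inhibitors, which hold the cycle in check, 5 of 8 were tested. Against untreated, 1 of the 5 was called at 24 h and 0 at 48 h without the block, beside 4.81% and 4.44% of all genes. With the block 2 of the 5 were called at each time, beside 11.5% and 10.0% of all genes. These calls were all downward and lay in CDKN1C and CDKN1A alone. CDKN1C, p57, fell at 24 h by a log2 difference of −1.34 ± 0.323 (adjusted p = 0.0475) and stood at −1.19 at 48 h (adjusted p = 0.0793, and 0.00381 with the block). CDKN1A, p21, stood at −0.93 at 24 h and −1.04 at 48 h (adjusted p = 0.103 and 0.0659), and with the block it fell at both times (adjusted p = 0.00773 and 0.00455). CDKN2B, p15, a known TGFβ target, was below the filter at 1.59 ± 0.04 untreated, 1.74 ± 0.07 at 24 h and 1.83 ± 0.12 at 48 h (SD, n = 3).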

How the data were processed

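Labelled cRNA from HK-2 RNA was hybridised to 1-colour Affymetrix arrays, 9 in all. The deposited log2 values were made by the authors with GCRMA, per the submitters' processing notes (no version is named there); the base of the log was read from the values, whose maximum was 12.5. GCRMA corrects background by probe sequence, normalizes arrays to each other and compresses folds near background. Array medians were 2.20 to 2.23, 28.2% to 29.3% of probe sets reached 4, and no detection calls were used. The number of arrays limits the precision.

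Of 22277 probe sets, 19070 had 1 gene symbol, 1043 several and 2164 none in the platform annotation; 1 with several lists CENPA and was not used. Symbols were updated through RefSeq gene IDs (19058 matched). Genes that reached a log2 value of 4 on 3 or more arrays entered the test (4368, 36.5%), which was limma 3.58.1 (R 4.3.3; lmFit, eBayes) on all 9 arrays; p-values were adjusted over these 4368 genes (Benjamini-Hochberg) and calls made at 0.05, and the script was tested on simulated data. No value was normalized again.

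To check whether replicate numbers pair the arrays, each array's deviation from its group mean was correlated with the others: r was 0.378 to 0.662 for arrays of the same number and −0.526 to 0.185 otherwise. The number was therefore also fitted as a block, and that fit is given where it changes a call. Without the block, p-values measure the spread between runs of a single line. With the block, the level of each run is taken out. Those p-values rest on how the time differences varied between the 3 runs. Members and lists were chosen with earlier results of these data known, so the counts are not independent support. Values per array are given for members called in either fit, for the 3 of each class with the smallest p in each comparison, for the 2 of highest mean, and for CCNE1, CCNE2, CDK1, CCNB1, CDC20, PCNA, MCM2, MKI67, TOP2A, E2F1 and FOXM1. For the other lists, genes called and up to 2 with the smallest p were eligible. The alternatives were the block, leaving out arrays or runs, filters, probe set choice, normalization and the variance model.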

Additional observations from a re-analysis of the deposited data

How the results depend on the processing

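The count of members called was 0 in limma, for S phase and mitotic members and all 3 comparisons, under every alternative without the block: leaving out each array or each run, no filter, a mean log2 value of at least 5, every probe set or the mean of a gene's probe sets, quantile normalization, median centring, and eBayes with trend and robust. With the replicate block the mitotic count was 1 at 24 h (NUSAP1) and 1 at 48 h (BUB1), and the block changed no other member's call. With the block and a run left out, an alternative added after seeing the data, it was 0 to 1 at 48 h (1 without replicate 3) and 0 at 24 h. Over all genes, the block gave 501 calls at 24 h and 438 at 48 h against 210 and 194. Leaving out arrays or runs gave 34 to 213 calls at 24 h and 33 to 206 at 48 h, and with the block as well 218 to 304 and 190 to 267. Without the block the lowest counts came without replicate 1, and 48 h against 24 h gave 0 throughout (219 genes and 2 members at an unadjusted p under 0.05 with all arrays). No called value turned its sign. The intervals of the fit without the block bound what that fit can say of a gene. Their median distance from an estimate to its bound was 0.41 for members and 0.43 for all genes on the log2 scale. This distance varied from gene to gene.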
